A study of Homo sapiens with 6 samples.

Results

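The cyclins that start the G1 phase, the kinases they drive and the inhibitors that hold those kinases back were read in RNA from human neuroblastoma cell lines. The 10 genes, taken by symbol from the 25370 rows of the count table, were CCND1, CCND2 and CCND3 (D-type cyclins), CDK4 and CDK6 (their kinases), CDKN2A, CDKN2B and CDKN2C (inhibitors of the INK4 family), and CDKN1A and CDKN1B (inhibitors of the CIP/KIP family). Each had 1 row, and the rule that takes them uses the symbol alone, with no threshold on a measured value. The genes themselves were chosen with earlier results of these data known. The libraries were BE2C cells with forced LMO1 expression (2 libraries), unmodified Kelly cells (1 library), unmodified BE2C cells (1 library) and BE2C cells with a vector control (2 libraries). BE2C and Kelly are MYCN-amplified neuroblastoma lines, and the LMO1 protein is a nuclear bridging factor built of LIM domains. The labels give no promoter for the LMO1 construct and do not say whether the modified cells were a clone or a pool, and BE2C is itself a clonal line.

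In the textbook scheme a D-type cyclin binds CDK4 or CDK6, and the pair phosphorylates the retinoblastoma protein, which releases E2F factors to switch on genes of DNA synthesis. INK4 proteins bind CDK4 and CDK6 directly and keep cyclin out. CIP/KIP proteins bind cyclin-kinase complexes, inhibit CDK2 in particular, and can help assemble cyclin D complexes. In neuroblastoma, high cyclin D1 RNA is a known trait of the tumour, and CDK4 is a known target of MYC family factors, which bind the E-box CACGTG.

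Start regions are shown for the kinases, which differed in direction with LMO1, and for CDKN2A, whose single count row holds reads of both INK4A and ARF, proteins made from different first exons. The windows are RefSeq's (GRCh38.p14, from 250 bases before to 50 bases after a start), all on the minus strand and written 5′ to 3′, with capitals marking CACGTG. The build differs from that of the counts, so the windows serve only to show sequence.
CDK4 (chr12:57752261-57752560): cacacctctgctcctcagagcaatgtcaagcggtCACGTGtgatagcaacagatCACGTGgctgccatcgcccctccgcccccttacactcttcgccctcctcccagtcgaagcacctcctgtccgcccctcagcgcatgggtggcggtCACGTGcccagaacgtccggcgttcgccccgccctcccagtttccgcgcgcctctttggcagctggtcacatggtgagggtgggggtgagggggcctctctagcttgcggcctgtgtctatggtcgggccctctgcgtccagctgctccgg
CDK6 (chr7:92836524-92836823): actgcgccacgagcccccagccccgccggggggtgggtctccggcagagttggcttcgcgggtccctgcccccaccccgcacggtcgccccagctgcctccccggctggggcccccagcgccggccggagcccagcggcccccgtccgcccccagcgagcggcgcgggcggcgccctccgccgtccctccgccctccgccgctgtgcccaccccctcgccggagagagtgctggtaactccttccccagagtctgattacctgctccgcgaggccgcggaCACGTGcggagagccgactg
CDKN2A, upstream start used for ARF (chr9:21995275-21995574): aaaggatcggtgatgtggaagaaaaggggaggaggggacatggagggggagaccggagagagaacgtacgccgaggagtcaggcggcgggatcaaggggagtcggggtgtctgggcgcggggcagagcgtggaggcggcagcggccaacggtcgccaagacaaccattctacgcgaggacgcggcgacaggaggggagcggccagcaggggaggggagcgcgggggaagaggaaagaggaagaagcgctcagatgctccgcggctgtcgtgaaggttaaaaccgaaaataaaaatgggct
CDKN2A, downstream start used for INK4A (chr9:21974808-21975107): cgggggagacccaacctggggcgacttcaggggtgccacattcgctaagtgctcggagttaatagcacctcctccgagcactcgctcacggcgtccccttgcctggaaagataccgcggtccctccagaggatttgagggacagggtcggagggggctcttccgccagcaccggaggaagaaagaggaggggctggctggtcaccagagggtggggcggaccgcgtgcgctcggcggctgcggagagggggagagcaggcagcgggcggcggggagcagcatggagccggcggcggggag
The CDK4 window held 3 copies of CACGTG and the CDK6 window shown 1 copy, while a second CDK6 window, not shown, and both CDKN2A windows held none. Of 35116 RefSeq windows of the same length, 7.26% held at least 1 copy and 0.094% held 3 or more. Windows were matched for 8 of the 10 genes (14 windows, all but CCND1 and CCND2), and 4 of the 14 windows, from 3 genes, had a copy, CDKN2C being the other gene. The E2F motifs TTTCCCGC and TTTGGCGC, searched on both strands, were in 0 of the 14 windows, against 1.63% and 0.652% of all windows. CACGTG reads the same on both strands, and none of the 3 motifs lies within another. A match describes letters only.

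The libraries held 18737591 to 59512958 counts. The forced gene, LMO1, stood at 6.55 and 5.85 CPM (read counts relative to library size, scaled by TMM over the 6 libraries) in the LMO1 libraries, at 94.1 CPM in Kelly, at 1.93 CPM in unmodified BE2C and at 1.05 and 0.926 CPM in the vector libraries. All 13 sympathoadrenal markers read here, such as HAND2 and GATA3, were above 5 CPM in at least 1 library. Their sum was 7698 and 7480 CPM with LMO1, 5959 CPM in Kelly, 7091 CPM in unmodified BE2C and 7079 and 7042 CPM with vector. CHGA was the largest part of that sum in every library, at 3889 and 3709 CPM with LMO1 and 4228 and 4179 CPM with vector. DBH had 89.8 and 78.9 CPM with LMO1, 873 CPM in Kelly, 35.4 CPM in unmodified BE2C and 13.4 and 15.0 CPM with vector. TH was above 5 CPM only with LMO1 (5.24 and 6.21 CPM) and in Kelly (405 CPM). The endothelial, haematopoietic and epithelial lists summed to at most 11.1 CPM in any library, and CD3E and HBB were at 0 in every library. Of the 8 fibroblast markers 6 were above 5 CPM somewhere, COL1A2 was at or near 0 throughout, and the list summed to 286 and 292 CPM with LMO1, 197 CPM in Kelly, 359 CPM in unmodified BE2C and 260 and 269 CPM with vector. THY1 was the highest of them in every BE2C library, at 177 and 184 CPM with LMO1, 168 CPM in unmodified BE2C and 159 and 160 CPM with vector. DCN had 37.0 and 34.0 CPM with LMO1, 102 CPM in unmodified BE2C and 18.8 and 20.9 CPM with vector. In Kelly, PDGFRB (98.8 CPM) and COL1A1 (57.9 CPM) were the highest. The Schwann and melanocytic list, with 3 of 8 markers above 5 CPM somewhere, summed to 26.2 and 29.7 CPM with LMO1, 49.1 CPM in Kelly, 24.0 CPM in unmodified BE2C and 24.5 and 24.9 CPM with vector. The part of these markers in the results below was not tested. In bulk RNA, fewer cells expressing a gene and less RNA per cell cannot be told apart.

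**Figure D1:**
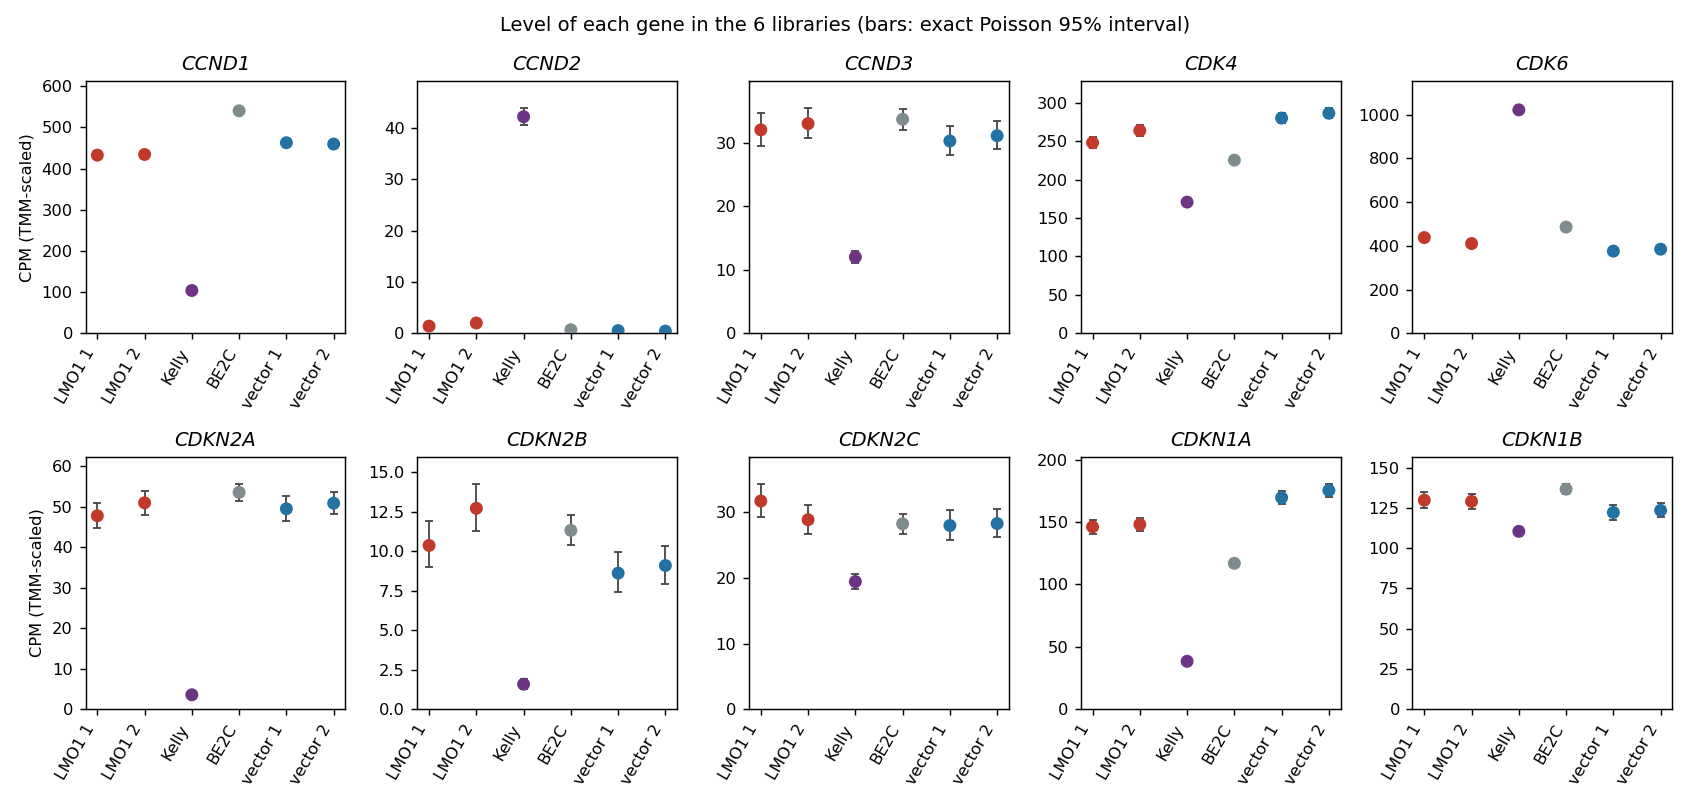
Level of each of the 10 genes in CPM (TMM-scaled, linear axes from 0) in the 6 libraries; points are libraries, and bars are exact Poisson 95% intervals, which cover counting error only. Kelly lies below every BE2C library for 8 genes and above all of them for CCND2 and CDK6, while the LMO1 and vector libraries lie close together.

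With forced LMO1 these genes moved in both directions, by 1.31-fold or less except for CCND2. CCND2, CDK6 and CDKN2B rose, while CCND1, CDK4 and CDKN1A fell, and CCND3, CDKN2A, CDKN2C and CDKN1B did not pass the test. The 6 of 10 genes called, 3 higher and 3 lower, stand against 31.0% of the 15480 genes tested (15.9% higher, 15.1% lower).

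Among the D-type cyclins, CCND1 was by far the most abundant per kilobase in BE2C cells. It had 433 and 434 CPM in the LMO1 libraries, against 463 and 460 CPM in the vector libraries. The groups did not overlap, and CCND1 fell by a log2 fold change of -0.08 (SE 0.0288, edgeR adjusted p = 0.024), a change of -5.57%. That call was lost without vector replicate 1 (edgeR adjusted p = 0.182), without vector replicate 2 (edgeR adjusted p = 0.112), and under other scalings given with the limits. Across the alternatives its adjusted p in edgeR, DESeq2 or limma ran from 0.00605 to 0.182.

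CCND2, the D-type cyclin best known from lymphoid, germ and neural progenitor cells, was close to silent in BE2C. It had 27 and 46 counts (1.41 and 2.02 CPM) in the LMO1 libraries, against 12 and 11 counts (0.55 and 0.443 CPM) in the vector libraries. CCND2 rose 3.49-fold with LMO1 (log2 1.80, SE 0.452, edgeR adjusted p = 0.00155), and without LMO1 replicate 2 the log2 value was 1.51 (edgeR adjusted p = 0.0789, the highest of its 12 alternatives, whose lowest was 3.8e-05). Vector replicate 2 lay just below the limit of the filter on low counts. The vector libraries alone would not have passed it, so CCND2 entered the test through its LMO1 libraries, where it was higher. With no such filter the log2 value was also 1.80 (edgeR adjusted p = 0.000658). In reads per kilobase, CCND2 still made up only 0.248% ± 0.0612 (SD, n = 2) of D-type cyclin RNA with LMO1 and 0.068% ± 0.0102 (n = 2) with vector.

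CCND3, the D-type cyclin found in many differentiated tissues, had 32.0 and 33.0 CPM with LMO1, against 30.2 and 31.1 CPM with vector. The groups did not overlap, but the difference missed the threshold (log2 0.09, SE 0.0813, edgeR adjusted p = 0.437). Its 95% interval ran from -0.07 to 0.25 on the log2 scale.

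The kinases moved in opposite directions. CDK4 had 248 and 264 CPM with LMO1, against 280 and 286 CPM with vector, and fell by 9.16% (log2 -0.14, SE 0.0343, edgeR adjusted p = 0.00135). CDK6 had 438 and 411 CPM with LMO1, against 376 and 385 CPM with vector, and rose by 11.9% (log2 0.16, SE 0.0312, edgeR adjusted p = 4.79e-05). Neither pair of groups overlapped. Both calls held under all 13 alternatives, with log2 values from -0.18 to -0.10 for CDK4 and from 0.11 to 0.21 for CDK6. In reads per kilobase, CDK6 was 22.7% ± 1.56 of the pair with LMO1 and 19.2% ± 0.00978 with vector (SD, n = 2 each). On the opposite strand CDK4's exons overlap those of TSPAN31, which held 15.9 to 29.5 CPM across the libraries. The strand setting of the counting was not given, so some reads may have been shared. Exons of other genes also overlap CCND1 (LTO1, 497 bases), CCND3 and CDKN1A on the opposite strand. CCND2 is overlapped on the same strand by AC008012.1 (989 bases), and reads of the 2 could be shared too.

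Of the INK4 inhibitors in the set, which bind CDK4 and CDK6, CDKN2B alone was called. CDKN2D, an INK4 gene outside the set, was also called and is given with the other inhibitors. CDKN2B encodes p15, known as a target of TGF-beta signalling. It had 198 and 289 counts (10.4 and 12.7 CPM) with LMO1, against 188 and 226 counts (8.61 and 9.10 CPM) with vector. The groups did not overlap, and CDKN2B rose 1.31-fold (log2 0.39, SE 0.144, edgeR adjusted p = 0.0323). The call was lost without LMO1 replicate 2 (log2 0.23, edgeR adjusted p = 0.371), without vector replicate 1 (edgeR adjusted p = 0.134) and without vector replicate 2 (edgeR adjusted p = 0.0694), and with DESeq2 (adjusted p = 0.163). Over its 13 alternatives the adjusted p in edgeR, DESeq2 or limma ran from 0.0201 to 0.371.

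CDKN2A had 47.8 and 51.0 CPM with LMO1, against 49.5 and 50.9 CPM with vector. These groups overlapped, and the log2 fold change was -0.02 (95% interval -0.15 to 0.12, edgeR adjusted p = 0.892), with a sign that changed between alternatives. INK4A and ARF cannot be separated in this row, and CDKN2B-AS1, an antisense RNA of the locus, overlaps its exons. CDKN2C, which encodes p18, had 31.7 and 28.9 CPM with LMO1, against 28.0 and 28.3 CPM with vector (log2 0.11, 95% interval -0.06 to 0.28, edgeR adjusted p = 0.355).

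Of the CIP/KIP inhibitors, CDKN1A was lower with LMO1. CDKN1A encodes p21, an inhibitor of many cyclin-kinase complexes. It had 146 and 148 CPM with LMO1, against 170 and 176 CPM with vector, and fell by 14.3% (log2 -0.22, SE 0.0396, edgeR adjusted p = 1.34e-05). The groups did not overlap, and all 13 alternatives kept the call, with log2 values from -0.25 to -0.20. CDKN1B, which encodes p27, had 130 and 129 CPM with LMO1, against 122 and 123 CPM with vector. Its groups did not overlap either, but it missed the threshold (log2 0.08, 95% interval -0.01 to 0.17, edgeR adjusted p = 0.152).

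**Figure D2:**
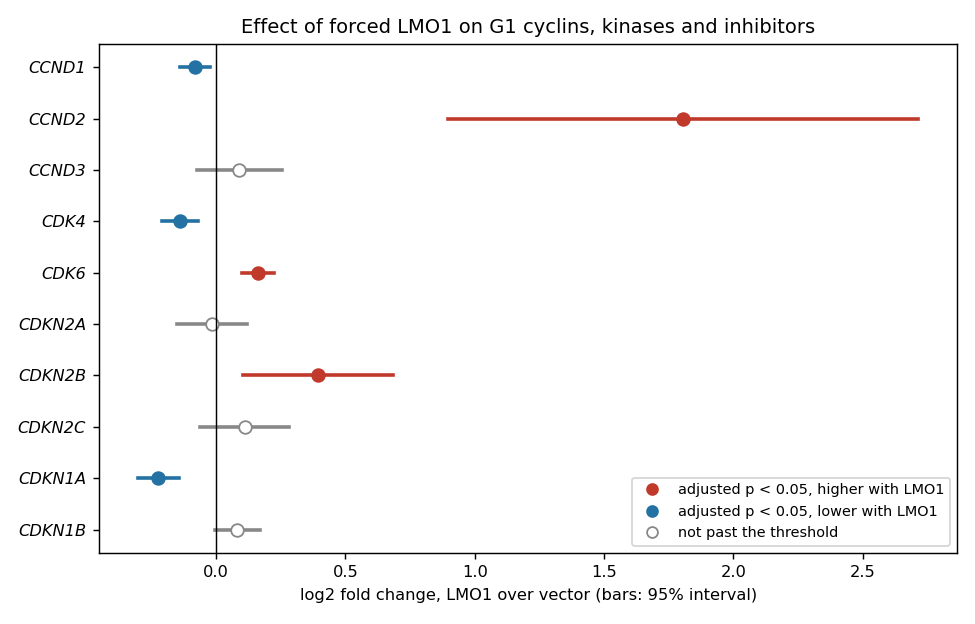
Log2 fold change of each gene, LMO1 over vector (n = 2 libraries each), with 95% intervals from the edgeR fit; filled points passed an adjusted p of 0.05. CCND2 stands at 1.80 with the widest interval, and every other gene lies between -0.22 and 0.39.

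The groups did not overlap for 9 of the 10 genes, against 63.7% of genes tested. The absolute log2 fold change had a median of 0.12 over the 10 genes and 0.17 over all genes tested. The median signed value was 0.09, against 0.00 for all genes. Whether same-group libraries derive from independent cultures is not stated, and the p-values cover just their library-to-library spread, possibly technical. With 2 libraries a group, the smallest p of an exact two-sided permutation test is 0.33.

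Summed per kilobase, the cyclins, the kinases and the 5 inhibitors were each slightly lower with LMO1, but for the kinases the direction turned without division by length. The D-type cyclins summed to 106.6 and 107.3 CPM per kilobase with LMO1, against 112.8 and 112.3 with vector. The kinases summed to 156.8 and 162.0 with LMO1, against 166.9 and 170.7 with vector, and the inhibitors to 134.4 and 135.6 with LMO1, against 139.9 and 143.3 with vector. None of these groups overlapped, and the sums were not tested further. In CPM, with no division by length, the kinases summed to 686 and 675 CPM with LMO1, against 656 and 671 CPM with vector. The INK4 genes of the set, without CDKN2D, summed to 27.3 and 28.0 CPM per kilobase with LMO1, against 26.3 and 26.9 with vector. The ratio of inhibitor to kinase RNA was 0.847 ± 0.0143 with LMO1 and 0.839 ± 0.00135 with vector (SD, n = 2 each), and its ranges overlapped. Among the inhibitors, CDKN1A's share was 43.5% ± 0.121 with LMO1 and 48.6% ± 0.317 with vector, and CDKN1B's share was 36.1% ± 0.377 and 32.6% ± 0.312 in the same order of groups (n = 2 each).

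**Figure D3:**
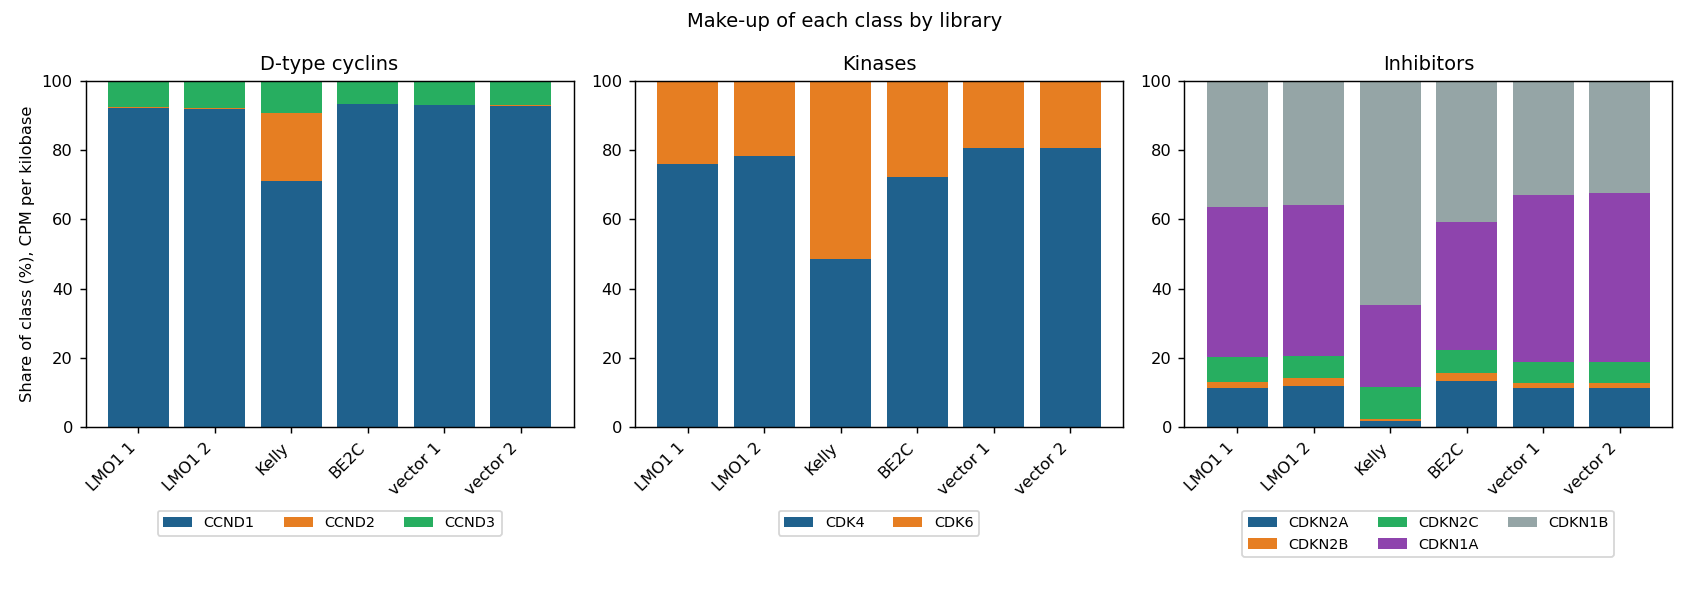
Share of each gene within its class in the 6 libraries, in percent of CPM per kilobase of exon; bars are single libraries. CCND1 fills at least 91.9% of the cyclin bar in every BE2C library and 71.2% in Kelly, where CCND2 takes 19.6%, and CDK6 takes 51.5% of the kinase bar in Kelly.

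Ordered by CPM per kilobase, the LMO1 libraries ran CDK4 (123), CCND1 (98.4), CDKN1A (58.7), CDKN1B (48.7), CDK6 (36.2), CDKN2A (15.7), CDKN2C (9.13), CCND3 (8.24), CDKN2B (2.86) and CCND2 (0.265). The vector libraries kept the same order, and no neighbours in it had overlapping values in either group. In unmodified BE2C the top pair changed places, with CCND1 at 122.7 and CDK4 at 108.5, as did CDKN1B at 51.4 and CDKN1A at 46.6. There CCND3 and CDKN2C, at 8.54 and 8.52, did not differ beyond counting error. The annotated exons of CDK6 span 11.7 kb, against 2.08 kb for CDK4, and the length of transcript present in these cells was not measured.

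Kelly cells, which express far more LMO1, were set against unmodified BE2C cells. Each line had 1 library, so replicate error is unknown, no p-value is given, and intervals cover counting error only. The G1 genes of Kelly had a different make-up, with less CCND1, CDKN2A, CDKN2B and CDKN1A, and more CCND2 and CDK6. Of the 10 genes, 7 differed at least 2-fold (log2 ratio of CPM + 1), 2 higher and 5 lower, against 28.7% of 12387 genes with at least 5 CPM on a side (15.3% higher, 13.4% lower). The median log2 ratio was -0.97 over the 10 genes and -0.03 over all genes compared.

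CCND1 had 104 CPM in Kelly, against 540 CPM in unmodified BE2C, a ratio of 0.193 (95% interval 0.187 to 0.198). CCND3 had 12 CPM in Kelly, against 33.7 CPM in unmodified BE2C, a ratio of 0.357 (0.326 to 0.390). CCND2 went the other way, with 2515 counts in Kelly and 34 in unmodified BE2C, or 42.2 and 0.712 CPM, a ratio of 59.3 (42.3 to 85.8). Even so, CCND1 remained the leading D-type cyclin of Kelly, with 23.6 CPM per kilobase against 6.51 for CCND2 and 3.04 for CCND3. CCND2 made up 26.7% of D-type cyclin counts in Kelly (Wilson 95% interval 25.8 to 27.6) and 0.124% in unmodified BE2C (0.0886 to 0.173). Summed per kilobase, D-type cyclins were at 33.2 in Kelly and 131.3 in unmodified BE2C.

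CDK6 had 1022 CPM in Kelly and 486 CPM in unmodified BE2C, a ratio of 2.10 (2.07 to 2.13), just past the 2-fold mark. CDK4 had 171 CPM in Kelly and 225 CPM in unmodified BE2C, a ratio of 0.758 (0.737 to 0.779). Per kilobase, CDK6 and CDK4 stood nearly level in Kelly at 87.2 and 82.2, while CDK4 exceeded CDK6 in every BE2C library. Their sum per kilobase was 169.4 in Kelly and 150.0 in unmodified BE2C. In CPM, with no division by length, the kinases summed to 1193 in Kelly and 711 in unmodified BE2C.

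All 5 inhibitors of the set were lower in Kelly. CDKN1C, which is outside the set and enters none of the sums, was higher there and is given with the other inhibitors. CDKN2A had 211 counts in Kelly and 2561 in unmodified BE2C, or 3.54 and 53.6 CPM, and was 15.1-fold lower (ratio 0.0661, 95% interval 0.0571 to 0.0761). CDKN2B, its neighbour on the chromosome, had 94 counts in Kelly and 541 in unmodified BE2C, a ratio of 0.139 (0.111 to 0.174). CDKN1A had 38.4 CPM in Kelly, against 117 CPM in unmodified BE2C, a ratio of 0.328 (0.312 to 0.344). CDKN2C and CDKN1B stayed within 2-fold, with ratios of 0.688 and 0.808. CDKN1B made up 64.7% of inhibitor RNA per kilobase in Kelly and 40.7% in unmodified BE2C. Per kilobase, inhibitor RNA summed to 0.379 of kinase RNA in Kelly and 0.842 in unmodified BE2C. This ratio lay between 0.837 and 0.857 in the other BE2C libraries. In CPM, with no division by length, the inhibitors summed to 173 in Kelly and 347 in unmodified BE2C.

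Set against all 5 BE2C libraries, Kelly lay outside their range for all 10 genes, against 77.7% of 12817 genes. It lay at least 2-fold outside for 7 of the 10, against 20.8% of genes (11.5% higher, 9.25% lower). CCND2 in Kelly was 20.8-fold above the highest BE2C library, CDK6 2.10-fold above it, and CDKN2A 13.5-fold below the lowest. MYCN, the amplified gene of both lines, had 2066 CPM in Kelly, against 1612 CPM in unmodified BE2C.

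**Figure D4:**
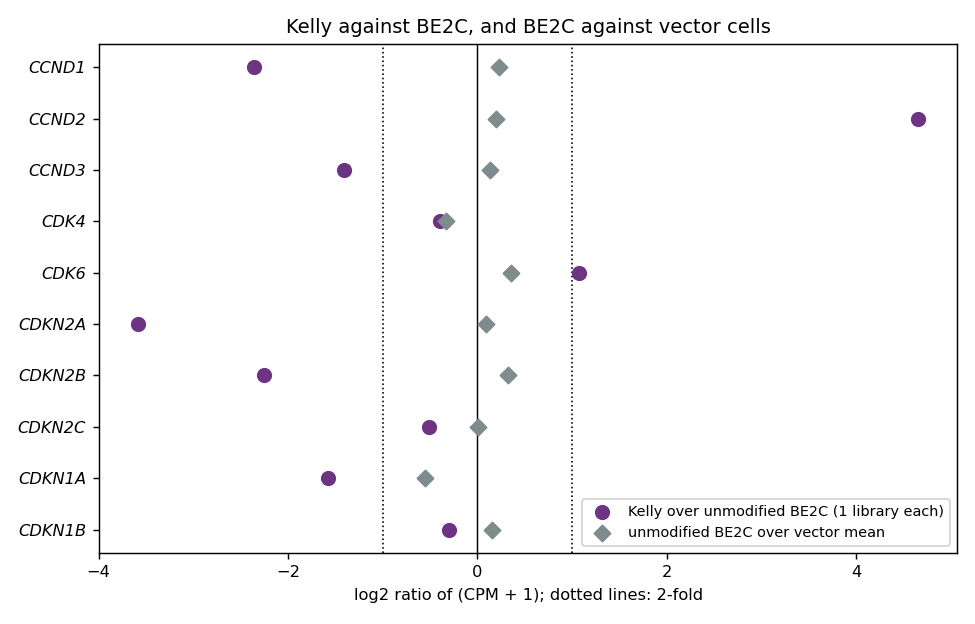
Log2 ratios of CPM + 1 for each gene: circles, Kelly over unmodified BE2C (1 library each); diamonds, unmodified BE2C over the mean of the 2 vector libraries; dotted lines mark 2-fold. Circles for CCND2 (4.66) and CDK6 (1.07) lie right of the line and 5 lie left of it, while no diamond reaches 2-fold.

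Unmodified BE2C cells (1 library) were then set against the vector cells (2 libraries). No gene of the 9 with at least 5 CPM differed 2-fold, against 11.4% of 11727 genes (8.79% higher, 2.58% lower), and no test was run on this comparison. CDKN1A was at 117 CPM in unmodified BE2C and 173 ± 4.13 CPM with vector (SD, n = 2), and CDK4 at 225 and 283 ± 4.44 CPM in the same order. CDK6 was at 486 CPM in unmodified BE2C and 381 ± 6.21 CPM with vector, and CCND1 at 540 and 461 ± 2.25 CPM. For these 4 of the 6 genes called with LMO1, the unmodified library lay outside the range of all 4 modified libraries. Among all 4797 genes called with LMO1, 62.7% did so. For CDK4, CDK6 and CDKN1A the LMO1 mean lay between the other values, so its direction against unmodified BE2C is the opposite of that against vector. CDKN1A averaged 147 CPM with LMO1, against 117 CPM in unmodified BE2C, and CDK4 averaged 256 CPM with LMO1, against 225 CPM in unmodified BE2C. CDK6 averaged 425 CPM with LMO1, against 486 CPM in unmodified BE2C. CDKN2B, at 11.3 CPM, and CCND2, at 0.712 CPM, lay between the lowest and highest modified libraries. The ratio of unmodified BE2C to the vector mean was 1.10 for CCND3, 1.07 for CDKN2A and 1.11 for CDKN1B, while CDKN2C had 28.3 CPM in unmodified BE2C, against a vector mean of 28.1 CPM. This comparison shares its vector libraries with that of LMO1. The unmodified library also held 48663459 counts, against at most 25070942 in a modified library. Its sample record is numbered apart from those of the modified libraries. Effects of the vector, of cell handling and of a possible batch cannot be told apart in this comparison.

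Other genes around the restriction point were read from lists in the LMO1 comparison. Of 12 RB family genes and repressive partners, 2 rose and 2 fell. RB1, which encodes the retinoblastoma protein, had 56.7 ± 3.11 CPM with LMO1, against 46.7 ± 4.08 CPM with vector (log2 0.28, SE 0.0689, edgeR adjusted p = 0.00109). E2F4, a repressive E2F, fell (log2 -0.19, edgeR adjusted p = 0.00532), as did LIN52, a subunit of the DREAM repressor (log2 -0.47, edgeR adjusted p = 0.00227). RBL1, which encodes p107, was the other gene that rose, a call lost with DESeq2 (adjusted p = 0.0829), and it is also on the list of E2F targets. Of the 6 activating and atypical E2F genes, 0 were called by edgeR, DESeq2 or limma and 3 had an unadjusted edgeR p under 0.05, as did 39.8% of all genes tested. E2F1 had 123 ± 1.86 CPM with LMO1, against 131 ± 4.0 CPM with vector.

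Of 25 E2F target genes tested, 5 fell and 1 rose (3 called with DESeq2), with a median log2 fold change of -0.01, against 0.00 for all genes. MCM7, a subunit of the replicative helicase, had 424 ± 3.45 CPM with LMO1, against 500 ± 7.08 CPM with vector (log2 -0.23, edgeR adjusted p = 1.03e-08). MCM2 and MCM5, of the same complex, fell by 0.13 and 0.14 on the log2 scale (edgeR adjusted p = 0.000877 and 0.0012). Of 11 tested genes of the cyclin E, cyclin A and CDK2 module, 2 were called, both higher, namely CKS1B (log2 0.17, edgeR adjusted p = 4.05e-05) and CKS2 (log2 0.20, edgeR adjusted p = 0.00198), which are small subunits that bind CDKs.

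The 3 other inhibitor genes all rose, CDKN2D not with DESeq2 (adjusted p = 0.0588). CDKN1C, which encodes p57, was at 5.55 and 7.84 CPM with LMO1 and averaged 3.76 ± 0.140 CPM with vector (log2 0.84, SE 0.204, edgeR adjusted p = 0.00104). CDKN2D, the p19 member of the INK4 family, rose by 0.57 on the log2 scale (edgeR adjusted p = 0.0057), and CDKN3, a phosphatase that acts on CDKs, by 0.37 (edgeR adjusted p = 0.00107). Of 4 genes of the CDK-activating kinase list, 1 fell, CCNH (log2 -0.17, edgeR adjusted p = 0.0342), a call lost with DESeq2 (adjusted p = 0.143).

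Of 18 genes of ubiquitin ligases for G1 regulators, or of enzymes that remove ubiquitin (USP2 and USP28), 2 rose and 4 fell (2 called with DESeq2). FBXO4, described as an F-box protein for cyclin D1, had 8.40 ± 0.324 CPM with LMO1, against 4.71 ± 0.00762 CPM with vector (log2 0.84, edgeR adjusted p = 0.000153). FBXO31, also described for cyclin D1, fell (log2 -0.23, edgeR adjusted p = 0.00895, DESeq2 adjusted p = 0.0536), as did the scaffold CUL1 (log2 -0.18, edgeR adjusted p = 0.00467). Of 26 upstream regulators tested, 3 rose and 6 fell. Among them ID3 and ID2, inhibitors of basic helix-loop-helix factors, fell by 0.65 and 0.44 on the log2 scale (edgeR adjusted p = 3.44e-15 and 3.84e-11). MXI1, an antagonist of MYC, rose by 0.45 (edgeR adjusted p = 4.89e-07).

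The share of all genes called was 31.0%, and nothing particular to a list is read from the counts of these lists.

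**Figure D5:**
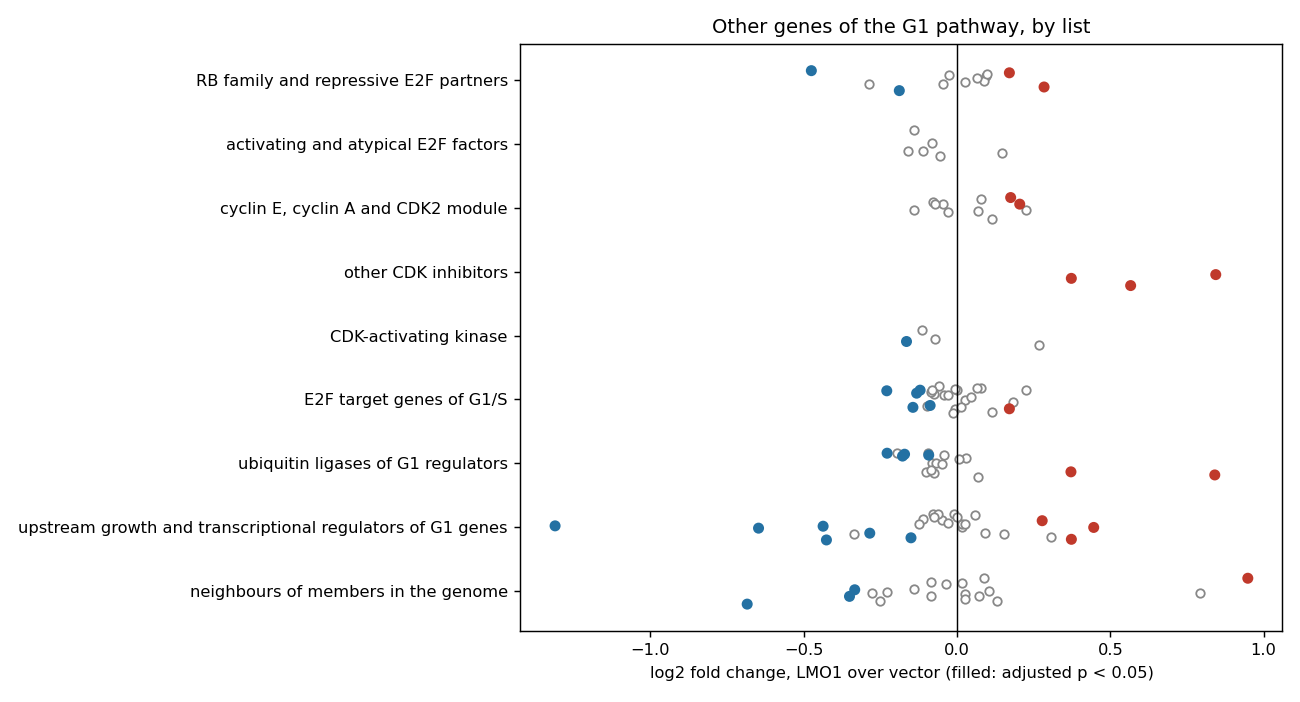
Log2 fold change, LMO1 over vector, of the tested genes of 9 lists around the G1 pathway; each point is a gene, filled where the adjusted p passed 0.05, with vertical scatter only to separate points. Most points lie within 0.5 of 0, the 6 activating or atypical E2F genes are open, and the 3 other inhibitors are filled and to the right.

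The same lists were read in Kelly over unmodified BE2C, without a test. Of 25 E2F targets, 7 were at least 2-fold lower and 1 higher, against 13.4% lower and 15.3% higher over all genes compared, with a median log2 ratio of -0.84, against -0.03 for all of those genes. RRM1, the large subunit of ribonucleotide reductase, had 185 CPM in Kelly, against 588 CPM in unmodified BE2C. CCNE1, cyclin E1, was the gene that was higher, at 16.1 CPM in Kelly and 3.77 CPM in unmodified BE2C. E2F1 was at 60.9 and 119 CPM and RBL1 at 30.1 and 73.1 CPM in the same order, while TFDP2, a dimer partner of E2Fs, had 189 CPM in Kelly, against 74.1 CPM in unmodified BE2C. CKS2 had 16.3 CPM in Kelly, against 76.4 CPM in unmodified BE2C.

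CDKN1C stood out among the inhibitors outside the main set, with 43.0 CPM in Kelly and 2.55 CPM in unmodified BE2C, while CDKN3 was at 8.41 and 21.5 CPM in the same order. Among upstream regulators, LIN28B, which blocks let-7 microRNA, had 257 CPM in Kelly, against 55.9 CPM in unmodified BE2C, and ID1 had 10.1 and 39.6 CPM in the same order. CUL4A had 145 CPM in Kelly, against 65.3 CPM in unmodified BE2C.

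Genes with the profile most like CCND1, CDK4 and CDKN1A were sought among 11691 others with a mean of at least 5 CPM. Likeness was the root mean square distance between centred log2(CPM + 1) profiles over the 6 libraries. Nearest to CCND1 were NCAPD3 (distance 0.0436), SHC3 (0.0491) and BMP1 (0.0568). Nearest to CDK4 were C14orf166 (0.0197), UQCRC2 (0.0218) and MAP3K3 (0.023), and nearest to CDKN1A were JUNB (0.0441), RPS6KL1 (0.0564) and SQSTM1 (0.0568). JUNB was at 64.0 and 64.9 CPM with LMO1, 15.4 CPM in Kelly, 51.1 CPM in unmodified BE2C and 77.4 and 78.7 CPM with vector. The 6 libraries hold only 4 kinds of cells, and for CCND1, CDK4 and CDKN1A most of the spread comes from Kelly.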

How the data were processed

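RNA was measured in 6 libraries of human neuroblastoma cell lines. The deposited table holds raw whole-number read counts per gene symbol, for which the submitters' processing notes list TopHat2 2.0.6, HTSeq and hg19. Annotation and strand setting are not given in the sources used here. Per the labels' protocols, a stranded total RNA kit was used.

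The test of LMO1 against vector used edgeR 4.0.16 (R 4.3.3): TMM scaling, filterByExpr (15480 of 25370 rows tested), quasi-likelihood F test, and Benjamini-Hochberg adjustment over all genes tested, with calls at an adjusted p below 0.05. Standard errors were derived from the fold change and its F statistic. The common coefficient of variation was 3.60%. Alternatives used DESeq2 1.42.0, limma 3.58.1 (voom), other scalings and filters, and single libraries left out. On simulated data for LMO1 against vector (15453 genes tested), the test found 32 of 50 genes set to change 1.25-fold and 48 of 50 set to change 1.5-fold. Among 15253 unchanged genes it made 1 call. The genes set to change were drawn from those with a mean of at least 50 counts. Every simulated gene had the same spread, close to the common value above. CCND2 lay below that mean, and changes smaller than 1.25-fold were not simulated, so these rates do not cover CCND2 or the smaller changes called here. Counts of same-group libraries varied beyond sampling (chi-square over its degrees of freedom, 2.89 with LMO1, 2.33 with vector), and each counted as a replicate.

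Comparisons with a single library used log2 ratios of CPM with 1 added and exact Poisson or binomial intervals (95%). Intervals and the floor of 3 counts (0.0504 to 0.16 CPM) cover counting error only, since reads carry no molecular identifiers. Lengths are unions of exons in GENCODE v29 (GRCh38), a later build than hg19, so no position of a count is given; promoter windows are from RefSeq.

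The genes and lists were chosen with earlier results of these data known. All 10 genes are named in every comparison; from each list, up to 3 called genes with the lowest adjusted p and up to 2 with the largest Kelly ratio are named, and 3 genes of nearest profile for each of CCND1, CDK4 and CDKN1A. MTAP, METTL1, TSPAN31 and CYP27B1 were chosen after their values were seen. Some genes and 1 list are not reported here.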

Additional observations from a re-analysis of the deposited data

How the results depend on the processing

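CDK4, CDK6 and CDKN1A kept their calls under all 13 alternatives to the comparison of LMO1 with vector. CCND3, CDKN2C and CDKN1B stayed short of the threshold under all 13. CDKN1B came closest, with an edgeR adjusted p of 0.0513 under total-count scaling and 0.0632 under upper-quartile scaling. CCND1 lost its call with total-count scaling (edgeR adjusted p = 0.136), upper-quartile scaling (0.103), a filter of 5 CPM in 2 libraries (0.0701) and DESeq2 (adjusted p = 0.061), beside the vector libraries left out in turn; the cause was not tested. CDKN2A, never called, changed sign with total counts (0.0111), upper-quartile scaling (0.0062) and the 5 CPM filter (0.0021), and ran from -0.0651 to 0.0263 with single libraries left out. DESeq2 called 2970 genes, against 4797 in edgeR, and 4 of the 10 genes. With each of the 4 libraries left out in turn, 3493 to 3636 genes and 4 to 6 of the 10 were called; the lone library is then assumed to vary like the other group. CCND2 was not tested under the 5 CPM filter, where 4 of 9 genes were called.

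Replicate numbers are shared by the groups, but same-numbered libraries did not deviate together (correlation -0.0213), so the numbers were not treated as pairs. With a replicate block, 4847 genes and 6 of the 10 were called.

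The counts in Kelly against unmodified BE2C (7 of 10) and in unmodified BE2C against vector (0 of 9) were equal with a pseudocount of 0.1, total counts and a 1.5-fold mark. Shares depend on length by construction: in raw counts, CCND1 was 92.7% of D-type cyclins with LMO1 and 65.8% in Kelly, CDK6 62.4% and 85.7% of the kinases, and CDKN1A 40.02% and 22.1% of the inhibitors. Depth limits CCND2 in BE2C, which rests on 11 to 46 counts a library.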

Other observations

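Genes that neighbour the 10 on their chromosomes were read as values, without a test of position. Next to CDKN2A and CDKN2B, CDKN2B-AS1 had 77 counts in Kelly and 354 in unmodified BE2C, or 1.29 and 7.41 CPM, while MTAP, a metabolic enzyme gene beside them, had 56.7 CPM in Kelly, against 75.3 CPM in unmodified BE2C. Copy number was not measured, and its part in these levels was not tested. Next to CDK4, AGAP2 had 27.9 CPM in Kelly, against 1.63 CPM in unmodified BE2C, while METTL1 had 11.9 CPM in Kelly, against 17.3 CPM in unmodified BE2C. TSPAN31, which overlaps CDK4, had 29.5 CPM in Kelly, against 16.6 CPM in unmodified BE2C, and CYP27B1 was at 1.23 and 1.78 CPM in the same order.

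Of 19 neighbours tested in LMO1 against vector, 1 rose and 3 fell, against 31.0% of all genes called. Near CCND1, CTTN, which encodes cortactin, averaged 141 ± 1.37 CPM with LMO1, against 178 ± 7.71 CPM with vector (SD, n = 2 each; log2 -0.33, edgeR adjusted p = 4.44e-09), and ANO1, a chloride channel, fell (log2 -0.68, edgeR adjusted p = 0.0064, DESeq2 adjusted p = 0.0534). BYSL, beside CCND3, fell by 0.35 on the log2 scale (edgeR adjusted p = 0.000676).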
